A study of Mus musculus with 12 samples.

Results

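Translation initiation factor genes were followed in tumour-specific CD8 T cells after checkpoint blockade. The set holds every listed gene whose name starts with Eif and a family number from 1 to 6, without the Eif2ak kinases (4 names) and the names of pseudogenes (7 names). This gave 52 of 48709 listed genes, and 51 of them were tested, which is 98.1% of the set against 36.6% of all listed genes. The untested member, Eif2c5, is an old symbol of an Argonaute gene that matched by name only, and it was listed at 0 in all 3 of the authors' deposited tables.

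Wild type C57BL/6 mice at postnatal day 91 carried TRAMP-C2, a transplantable mouse prostate tumour line. Live CD45+CD3+CD8+ T cells positive for the Spas-1 tetramer and negative for Spas-2 were sorted from tumour-draining lymph nodes at day 28, a day the sample labels count from treatment and the series text from tumour injection. The arms were anti-CTLA-4 (an antibody to the inhibitory receptor CTLA-4), anti-PD-1 DANA (an antibody to the inhibitory receptor PD-1), both antibodies together (the combination) and isotype control antibody. Antibody was given on days 3, 6 and 9 by the sample labels, or 3, 6 and 8 by the series text. Each arm was 1 pool of 5 mice divided into 3 libraries, 12 in all. The p-values therefore measure the spread between splits of a pool, and the effect of an arm cannot be told apart from its pool of mice.

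Initiation factors place the ribosome on a messenger RNA and at its start codon. The factor eIF2 carries the initiator tRNA, eIF2B recharges eIF2 with GTP, eIF3 holds the small ribosomal subunit, and eIF4F (the cap-binding eIF4E, the scaffold eIF4G and the helicase eIF4A) brings in capped messenger RNA. The factors eIF1 and eIF1A guide scanning, and eIF5 and eIF5B act at start codon recognition and subunit joining. In T cells, activation is known to raise protein synthesis, in part through mTORC1, whose substrates include the inhibitory eIF4E-binding proteins.

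Each of the authors' deposited tables compares 1 treatment with isotype and gives the larger of both group means in RPKM (reads scaled to exon length and library size), a log2 fold change and a false discovery rate. A gene was called where that rate was under 0.05. A positive log2 fold change means a higher level in the treated arm, and values in threes are given first for anti-CTLA-4, next for anti-PD-1 DANA and last for the combination. Standard errors (SE) were implied from each log2 fold change and its p-value. Where a mean recurs in 2 or more tables it is the isotype mean, and a larger value is the mean of the treated arm. When all 3 values differ, the smallest is only an upper bound of the isotype mean. Library depths recovered from the steps of low RPKM values ran from 14729713 to 42556869 reads. For low means the recovered depths also gave the whole reads in each library. The libraries of an arm are written A, B and C from the largest to the smallest, since they cannot be tied to replicate numbers.

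Few initiation factor genes differed from isotype. In anti-CTLA-4 cells 2 of 51 were called in the authors' deposited table, against a background of 4.23% of the 17833 tested genes, with Eif1a higher (background 2.74%) and Eif2b3 lower (background 1.49%). In anti-PD-1 DANA cells 1 of 51 was called in the authors' deposited table (background 3.75%), and it was again Eif1a, higher (background 2.43%). In the combination 4 of 51 were called in the authors' deposited table (background 7.53%), and Eif1b, Eif2b1, Eif2d and Eif4e3 were all lower (background 3.59%). As shares of the set these counts are 3.92%, 1.96% and 7.84%. The backgrounds above were not matched for expression level. Of tested genes whose highest mean was 10 to 50 RPKM, 6.8%, 6.25% and 13% were called, with 1, 1 and 2 of 26 members. Under 10 RPKM these were 3.67%, 3.26% and 6.17%, with 1, 0 and 2 of 14 members. At 50 RPKM or more they were 2.54%, 1.13% and 6.91%, with 0 of 11 members in each comparison. The comparisons share the isotype libraries, so a gene called in both antibody arms is not found independently in each. At an unadjusted p under 0.05 there were 5, 11 and 10 members (9.8%, 21.6% and 19.6%), against 22.9%, 23.1% and 23.2% of tested genes.

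**Figure D1:**
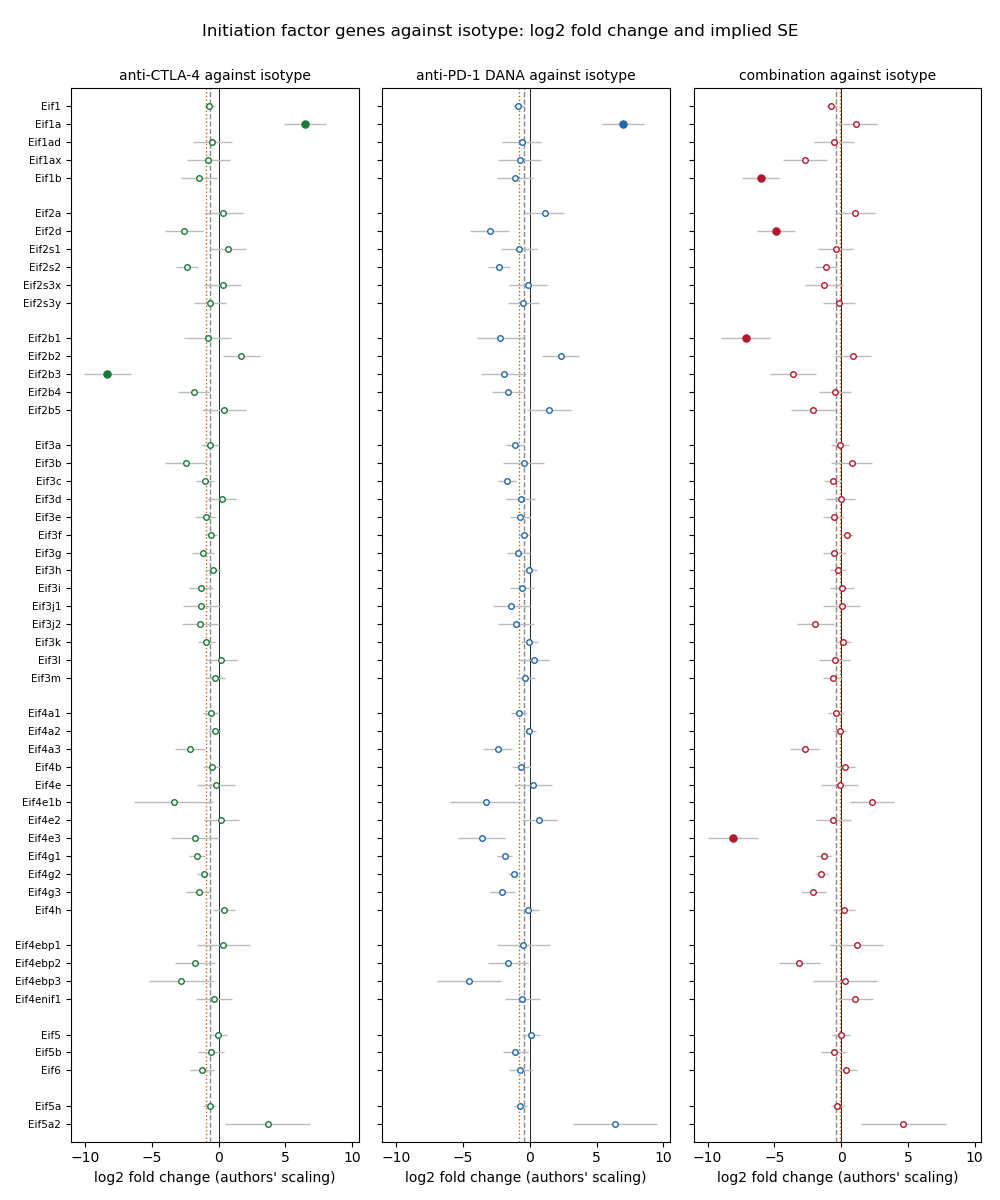
Log2 fold change against isotype on the authors' scaling (x axes) for the 51 tested initiation factor genes (rows, spaced by role) in the 3 comparisons (panels). Filled circles are called, bars are 1 implied SE, the dashed line is the median of all tested genes (-0.62, -0.45 and -0.42) and the dotted line marks no difference on the library size scale. The filled points are the 6 called genes, and most open points lie near the dashed line.

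The median log2 fold change of the set in the authors' deposited tables was -0.65, -0.72 and -0.42 for the 3 treatments, beside -0.62, -0.45 and -0.42 for all tested genes. These medians were not matched for expression level. With anti-PD-1 DANA the members were at -0.92 against -0.22 for all tested genes under 10 RPKM. At 10 to 50 RPKM, which holds 26 members, the values were -0.70 against -0.82, and at 50 RPKM or more -0.71 against -0.43. Values below 0 were listed for 39, 42 and 35 members in the authors' deposited tables (76.5%, 82.4% and 68.6%). Without matching for expression level, 59.4%, 56.5% and 57% of tested genes were below 0. This sign depends on the scaling. Genes with both group means known lay 0.94, 0.82 and 0.11 higher, in log2 units, by RPKM than in the deposited fold changes. Moved to that library size scale, the medians of the set were 0.29, 0.10 and -0.32, so for the single antibodies the direction turned. Eif1, which encodes the factor that guards start codon choice, shows the turn. Its mean was 166 RPKM in anti-CTLA-4 cells and 137 RPKM in isotype cells, while the log2 fold change was -0.68 in the same authors' deposited table. By RPKM the anti-CTLA-4 mean was higher than isotype in 28 members, not higher in 19 and not known in 4. These counts were 29, 20 and 2 with anti-PD-1 DANA, then 16, 17 and 18 in the combination. Of all tested genes 47.8%, 49.2% and 31.5% were known to be higher by RPKM in the respective arm. These shares are lower bounds. Solved reads settled some open cases for members only, so the member counts and these shares are not like for like.

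The genes were well expressed. A group mean of 10 RPKM or more was reached by 37 members, and 23.4% of all tested genes reached it. The highest means in the authors' deposited tables were those of Eif3h (173 RPKM, anti-PD-1 DANA), Eif1 (166 RPKM, anti-CTLA-4), Eif5a (149 RPKM, anti-CTLA-4), Eif3f (126 RPKM, combination) and Eif3e (103 RPKM, anti-PD-1 DANA). Only 3 members stayed under 1 RPKM, namely Eif2c5, Eif4e1b and Eif5a2. The median of the highest group mean was 45.9 RPKM for the eIF3 subunits, 30.1 RPKM for eIF4F and its helpers, 13.8 RPKM for the eIF2 group and 11.2 RPKM for eIF2B in the authors' deposited tables.

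**Figure D2:**
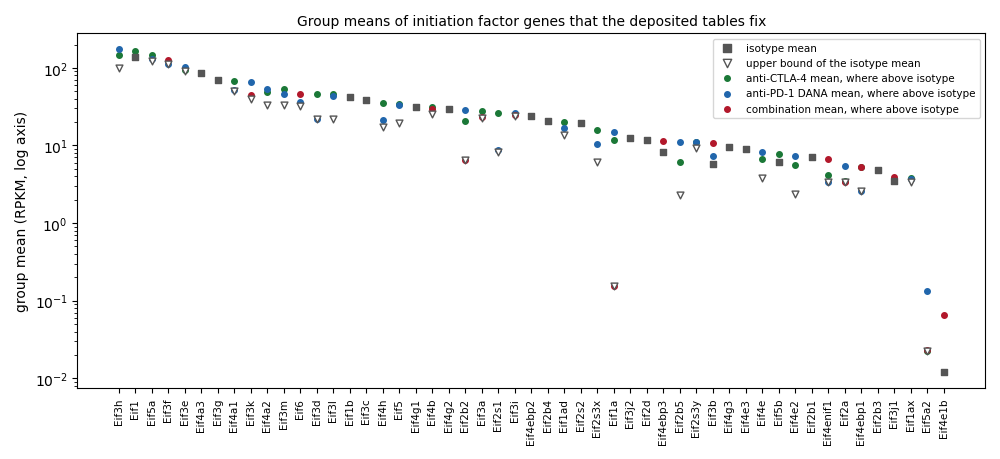
Group means in RPKM (log axis) of the initiation factor genes listed above 0, ordered by their highest mean. Squares are isotype means, open triangles upper bounds of the isotype mean, and coloured points treated means where the tables fix them. Eif1a stands apart, with 11.7 and 14.8 RPKM in the single antibody arms above an isotype bound of 0.156 RPKM.

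Precision set what could be called. The implied SE of the members had a median of 1.17 (0.434 to 3.18) in the anti-CTLA-4 comparison, smaller than the 1.95 of all tested genes. At that median a log2 fold change of 3.94, 3.98 and 3.75 was needed for a call in the 3 comparisons. The 11 members at 50 RPKM or more needed 1.99, 2.01 and 1.89, and none of them was called. For members under 10 RPKM the need rose to 5.18, 5.23 and 4.93. Smaller differences of the less abundant genes were not detectable.

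**Figure D3:**
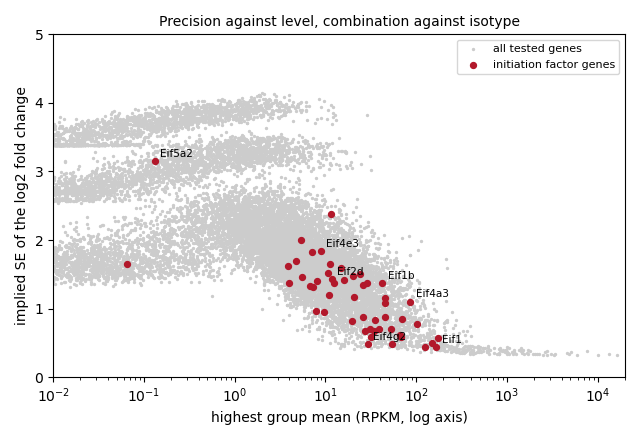
Implied SE of the log2 fold change (y axis) against the highest group mean in RPKM (x axis, log) in the comparison of the combination with isotype. Grey points are all tested genes and red points the initiation factor genes, whose SE falls with level, from Eif5a2 at 0.131 RPKM to Eif1 at 166 RPKM with an SE of 0.434.

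Among the scanning factors, Eif1a was higher in both single antibody arms and Eif1b was lower in the combination. Eif1a (chr18:46597704-46610225, GRCm38) encodes the autosomal copy of eIF1A. Its libraries A, B and C held 1041, 1209 and 43 reads in anti-CTLA-4 cells, which is 12.2, 22.0 and 1.01 RPKM. In anti-PD-1 DANA cells they held 2714, 1116 and 22 reads, or 29.5, 14.5 and 0.315 RPKM. In combination cells they held 36, 7 and 7 reads, or 0.294, 0.0760 and 0.0989 RPKM. The isotype mean was at most 0.156 RPKM, so no isotype library can exceed 0.469 RPKM. Thus 2 of 3 libraries in each single antibody arm lay far above the combination libraries, while library C held far fewer reads than the other two. In anti-PD-1 DANA that library, at 0.315 RPKM, lay inside the range open to isotype.

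By RPKM the anti-CTLA-4 mean of Eif1a was at least 75.2 times and the anti-PD-1 DANA mean at least 94.5 times the isotype mean. In the authors' deposited tables the log2 fold changes were 6.49 (implied SE 1.58, false discovery rate 0.0091) and 6.96 (implied SE 1.58, false discovery rate 0.00515). The combination gave 1.12 (implied SE 1.59, false discovery rate 0.9999) in the authors' deposited table. The reads were solved with the exon length of 1 Eif1a transcript, 2879 bases, a length taken after the data were seen. Eif1ax, the X-linked copy, was not called. It held 1523, 114 and 46 reads in anti-CTLA-4 libraries and 703, 652 and 284 in anti-PD-1 DANA libraries. Its log2 fold changes were -0.77, -0.77 and -2.71 in the authors' deposited tables. The annotated exons of both copies share no stretch of 50 bases, so reads of that length can be told apart.

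Eif1b (chr9:120492606-120495327) encodes a close relative of eIF1. Its isotype mean was 42.0 RPKM in the authors' deposited tables, the larger mean in all 3. Its log2 fold change was -6.02 in the combination (implied SE 1.37, false discovery rate 0.00233), against -1.44 and -1.10 with the single antibodies, uncalled, in the authors' deposited tables. Its reads per library could not be solved. Eif1 was not called in the combination, with a log2 fold change of -0.74 (implied SE 0.434) in the authors' deposited table. The coding sequences are shown because one gene of the pair was called and the other was not, and because reads can be assigned only where they differ. They start at the start codon, and capitals mark the bases that differ (GENCODE M21, GRCm38).
Eif1: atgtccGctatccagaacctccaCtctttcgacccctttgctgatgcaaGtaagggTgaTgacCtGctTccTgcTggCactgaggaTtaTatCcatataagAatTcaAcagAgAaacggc
Eif1b: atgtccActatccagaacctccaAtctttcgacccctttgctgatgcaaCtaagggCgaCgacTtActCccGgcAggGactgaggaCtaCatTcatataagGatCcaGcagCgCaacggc
Of 342 coding bases 64 differed (81.3% identity), 19 of them in the 120 shown. The longest identical run was 25 bases. The last scanning member, Eif1ad, encodes an eIF1A domain protein, and its log2 fold changes were -0.47, -0.61 and -0.53 in the authors' deposited tables, each smaller than its implied SE of 1.47.

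In the eIF2 group 1 of 6 genes was called, Eif2d, in the combination. Eif2d (chr1:131153181-131187658) encodes a factor that can deliver tRNA to the ribosome without GTP and takes part in recycling. Its isotype mean was 11.7 RPKM, the larger mean in all 3 of the authors' deposited tables. Its log2 fold change was -4.86 in the combination (implied SE 1.43, false discovery rate 0.0313) in the authors' deposited table. The values of the single antibodies were -2.60 and -3.02 (false discovery rates 0.737 and 0.469) in the authors' deposited tables. Centred on the median tested gene, the combination value was -4.44 with an adjusted p of 0.0594, so that call was lost.

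The core eIF2 subunits were not called. Eif2s2, the beta subunit, with an isotype mean of 19.6 RPKM, had log2 fold changes of -2.38, -2.31 and -1.14 (implied SE 0.812; false discovery rates 0.116, 0.135 and 0.9999) in the authors' deposited tables. Eif2s1, the alpha subunit that stress kinases phosphorylate, reached the highest level of the group, 26.1 RPKM in anti-CTLA-4 cells, against at most 8.17 RPKM in isotype cells, with a log2 fold change of 0.69 (implied SE 1.35) in the authors' deposited table. Eif2a, which despite its symbol encodes a separate factor and not the alpha subunit, held 783, 38 and 535 reads in anti-CTLA-4 libraries, 1029, 784 and 962 in anti-PD-1 DANA libraries and 81, 392 and 1163 in combination libraries. For Eif2a the spread between the splits of a pool was thus wide in the anti-CTLA-4 and combination arms and narrow in the anti-PD-1 DANA arm. Other genes differed in this: Eif2b2 ran from 17.8 to 25.9 RPKM with anti-CTLA-4 and from 11.0 to 57.0 RPKM with anti-PD-1 DANA. The Eif2a reads are among the less certain, with 0.195 (anti-PD-1 DANA) and 0.183 (combination) solutions expected by chance, where at most 0.2 was allowed.

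The gamma subunit has an X-linked and a Y-linked gene. Eif2s3x held 206, 3079 and 204 reads in anti-CTLA-4 libraries and 1360, 1581 and 435 in anti-PD-1 DANA libraries, so 88.6% of its anti-CTLA-4 RPKM came from library B. Its log2 fold changes were 0.30, -0.14 and -1.28 in the authors' deposited tables. Eif2s3y had log2 fold changes of -0.64, -0.48 and -0.19 (implied SE 1.19) and means of 10.9 and 11.0 RPKM in the single antibody arms in the authors' deposited tables. Of the exon sequence of Eif2s3x 34.6% recurs in Gm2223, so its reads are uncertain.

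Of the 5 eIF2B subunit genes, Eif2b3 was lower in anti-CTLA-4 cells and Eif2b1 was lower in the combination. Eif2b3 (chr4:117019402-117087306) encodes the gamma subunit, which forms the catalytic part with the epsilon subunit. Its isotype mean was 4.77 RPKM in the authors' deposited tables. Its log2 fold change was -8.33 with anti-CTLA-4 (implied SE 1.75, false discovery rate 0.00204), against -1.96 and -3.61 with anti-PD-1 DANA and the combination (false discovery rates 0.9998 and 0.435), in the authors' deposited tables. Its reads per library fitted several solutions and are not given.

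Eif2b1 (chr5:124570213-124579131, minus strand) encodes the alpha subunit, through which phosphorylated eIF2 inhibits the complex. Its isotype libraries A, B and C held 3, 1334 and 3 reads, or 0.0354, 21.1 and 0.0485 RPKM. Library B thus gave 99.6% of the isotype level, and the other isotype libraries were near 0. Against that mean, the log2 fold change of the combination was -7.14 (implied SE 1.83, false discovery rate 0.00876) in the authors' deposited table. The values of the single antibodies were -0.81 and -2.20 in the authors' deposited tables, and the first was 0.13 on the library size scale. That scale adds the median shift of other genes. By RPKM the anti-CTLA-4 mean of Eif2b1 was not higher than its isotype mean. Such reliance on 1 library was common among genes with isotype as the highest arm. Of 408 such other genes with a solved isotype mean of 3 to 15 RPKM, 77.5% took 80% or more of it from 1 library. Among the solved means of the set, in any arm, 12 of 36 did so.

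Eif2b2, the beta subunit, had the highest level of the complex. It held 1445, 639 and 534 reads in anti-CTLA-4 libraries (25.9, 17.8 and 19.2 RPKM), 3435, 554 and 829 in anti-PD-1 DANA libraries (57.0, 11.0 and 18.1 RPKM) and 187, 673 and 289 in combination libraries (2.33, 11.2 and 6.23 RPKM). All anti-CTLA-4 libraries lay above all combination libraries, while the anti-PD-1 DANA and combination libraries overlapped. Its log2 fold changes against isotype were 1.71, 2.30 and 0.88 (implied SE 1.38), uncalled, in the authors' deposited tables. Eif2b4, the delta subunit, held 4092, 224 and 654 isotype reads. Eif2b5, the catalytic epsilon subunit, had log2 fold changes of 0.39, 1.41 and -2.08 (implied SE 1.65 or less) in the authors' deposited tables.

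No eIF3 subunit gene was called in any comparison. The 14 genes had median log2 fold changes of -0.94, -0.63 and -0.15 in the authors' deposited tables, and 0.00, 0.19 and -0.04 on the library size scale. The lowest value was -2.47 (Eif3b, anti-CTLA-4) and the highest 0.78 (Eif3b, combination) in the authors' deposited tables. Eif3b, a scaffold subunit that contacts the small ribosomal subunit, held 6, 145 and 1222 isotype reads, with 89.3% of the RPKM in library C. Its anti-PD-1 DANA libraries held 600, 1412 and 60 reads and its combination libraries 713, 1574 and 1010. By RPKM the isotype libraries ran from 0.0546 to 15.2, those of anti-PD-1 DANA from 0.740 to 15.8 and those of the combination from 5.01 to 14.7. Eif3c, another core subunit, had the smallest p-value of the complex, with a log2 fold change of -1.71 for anti-PD-1 DANA (implied SE 0.700, false discovery rate 0.273) in the authors' deposited table.

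Eif3h, a subunit of the outer part of the complex, reached 145 RPKM with anti-CTLA-4 and 173 RPKM with anti-PD-1 DANA, against at most 101 RPKM in isotype cells, and its log2 fold changes were -0.41, -0.04 and -0.23 (implied SE 0.569) in the authors' deposited tables. Eif3f, whose product sits beside that of Eif3h, had log2 fold changes of -0.57, -0.43 and 0.45 (implied SE 0.442) in the authors' deposited tables. The genes Eif3j1 and Eif3j2 encode near-identical copies of a loosely bound subunit, and 91.8% of the 50-base stretches of Eif3j2 recur elsewhere, most of them in Eif3j1, so their reads cannot be divided with certainty. Eif3j2 held 1030, 668 and 718 isotype reads (13.2, 11.5 and 12.6 RPKM), the most even split among the solved means. Eif3j1 held 1210, 285 and 288 isotype reads and 992, 786 and 516 combination reads. The log2 fold changes of Eif3j2 were -1.36, -1.04 and -1.94 (implied SE 1.37) in the authors' deposited tables.

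Among eIF4F and its helpers 1 of 12 genes was called, Eif4e3, in the combination. Eif4e3 (chr6:99625135-99666771, minus strand) encodes a divergent cap-binding relative of eIF4E. Its isotype libraries held 130, 1 and 1510 reads, or 1.57, 0.0162 and 25.0 RPKM. Library C gave 94.0% of the isotype level, and library B held a single read. The log2 fold change was -8.10 in the combination (implied SE 1.84, false discovery rate 0.0024), beside -1.78 and -3.62 with the single antibodies (false discovery rate 0.528 for the latter), in the authors' deposited tables. Of its 50-base exon stretches 12.3% recur in other genes, most of them in Gm20696. Leaving out members known to rest on 1 library, a step added after the data were seen, the combination had 2 called genes, Eif1b and Eif2d. The reads per library of Eif1b and Eif2d were not solved, so this step could not have removed them. Whether they rest on 1 library is not known.

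None of the scaffold genes passed the threshold, and the false discovery rates nearest to it were those of Eif4g1 with anti-PD-1 DANA and Eif4g2 in the combination. Eif4g1, the main eIF4G, had an isotype mean of 31.7 RPKM, the larger mean in all 3 of the authors' deposited tables. Its log2 fold changes were -1.59, -1.90 and -1.32 (implied SE 0.590; false discovery rates 0.174, 0.069 and 0.360) in the authors' deposited tables. Eif4g2, which encodes a relative that lacks the eIF4E-binding part, had an isotype mean of 29.2 RPKM and log2 fold changes of -1.12, -1.18 and -1.48 (implied SE 0.476; false discovery rates 0.310, 0.250 and 0.0623) in the authors' deposited tables. Eif4g3 had an isotype mean of 9.53 RPKM and log2 fold changes of -1.49, -2.06 and -2.08 (false discovery rates 0.422 and 0.385 for the last 2) in the authors' deposited tables. With adjustment over tested genes only, Eif4g1 and Eif2s2 were also called for anti-PD-1 DANA (3 genes in all), Eif2s2 for anti-CTLA-4 (3 in all) and Eif4g2 in the combination (5 in all).

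Eif4a1 and Eif4a2, the helicase genes, were at 67.3 RPKM (anti-CTLA-4) and 53.8 RPKM (anti-PD-1 DANA) at their highest in the authors' deposited tables. The log2 fold changes were -0.56, -0.81 and -0.36 for Eif4a1 and -0.31, -0.04 and -0.11 for Eif4a2 in the authors' deposited tables, with implied SE of 0.591 and 0.478. Eif4a3 belongs by name to this family, but its product is a core part of the exon junction complex. It had the highest mean of the group, 86.6 RPKM in isotype cells, and log2 fold changes of -2.13, -2.42 and -2.74 (implied SE 1.10; false discovery rates 0.626, 0.413 and 0.223) in the authors' deposited tables. Eif4e, the cap-binding protein itself, held 873, 1467 and 208 reads in anti-CTLA-4 libraries and had log2 fold changes of -0.18, 0.23 and -0.12 (implied SE 1.40) in the authors' deposited tables. Eif4e1b, a relative known from oocytes, was near absence, with 0, 2 and 0 isotype reads and 12, 1 and 3 combination reads.

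None of the 4 genes of eIF4E-binding proteins was called. Eif4ebp1 and Eif4ebp3 rested on few libraries. Eif4ebp1 held 5, 366 and 235 reads in anti-CTLA-4 libraries, 4, 3 and 413 in anti-PD-1 DANA libraries and 30, 1 and 833 in combination libraries. Eif4ebp3 held 0, 0 and 444 isotype reads and 0, 193 and 483 combination reads, and its exons share 65.5% of their 50-base stretches with another gene. Each arm thus ranged from almost no reads in one library to most of its reads in another. The log2 fold changes of Eif4ebp3 were -2.80, -4.53 and 0.29 (implied SE 2.37 to 2.38) in the authors' deposited tables. Eif4ebp2 was the most abundant, at 23.8 RPKM in isotype cells, with log2 fold changes of -1.79, -1.64 and -3.12 (implied SE 1.50; false discovery rate 0.484 in the combination) in the authors' deposited tables. Eif4enif1, which encodes the eIF4E transporter of messenger RNA granules, held 1856, 275 and 53 reads in anti-CTLA-4 libraries.

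**Figure D4:**
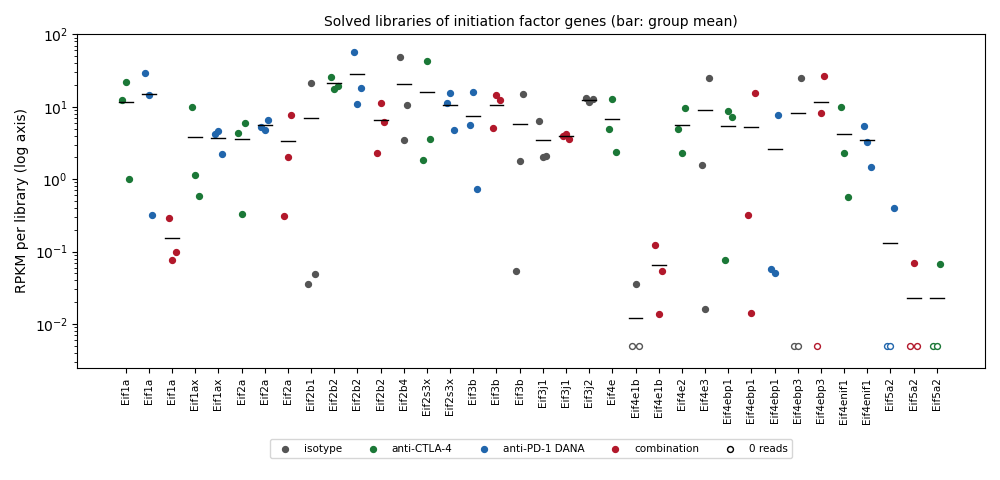
RPKM per library (log axis) for each solved group mean of the initiation factor genes. Points are the libraries A, B and C from left to right, coloured by arm, bars are group means and open circles at the bottom are libraries with 0 reads. Isotype libraries of Eif2b1 run from 0.0354 to 21.1 RPKM, whereas those of Eif3j2 lie between 11.5 and 13.2 RPKM.

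In all, 36 of 47 attempted group means were solved, in 18 genes, and 12 of these means in 9 genes took 80% or more of the RPKM from 1 library. Genes of joining and GTP hydrolysis were not called. Eif6, whose product keeps the ribosomal subunits apart, reached 45.9 RPKM in the combination and had log2 fold changes of -1.23, -0.72 and 0.33 (implied SE 0.876) in the authors' deposited tables. Eif5, the GTPase activator of eIF2, had values of -0.07, 0.06 and -0.03 (implied SE 0.676) in the authors' deposited tables. Eif5b, the joining GTPase, had values of -0.55, -1.08 and -0.53 (implied SE 0.969) in the authors' deposited tables. Eif5a, whose hypusine-bearing product helps ribosomes through hard peptide bonds, had values of -0.65, -0.72 and -0.30 (implied SE 0.494) in the authors' deposited tables. Its paralog Eif5a2 had 5 reads in anti-CTLA-4, 48 in anti-PD-1 DANA and 11 in combination cells, each in a single library. The fitted log2 fold changes of Eif5a2, up to 6.38 in the authors' deposited tables, rest on those few reads and were not called.

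The treated arms were compared with each other from differences between the deposited fold changes, in which isotype drops out. The test is a two-sided normal approximation with false discovery rates over all listed genes, since an exact test needs values per library. No member was called in any of the 3 comparisons (background 0.903% for combination against anti-CTLA-4, 0.449% for combination against anti-PD-1 DANA, 0% for anti-CTLA-4 against anti-PD-1 DANA). At an unadjusted p under 0.05 there were 7, 7 and 1 members, that is 13.7%, 13.7% and 1.96%, beside 12.5%, 11% and 6.46% of tested genes. For Eif1a the combination minus anti-CTLA-4 difference was -5.37 (SE 1.58, false discovery rate 0.112) and the combination minus anti-PD-1 DANA difference -5.84 (false discovery rate 0.0774). For Eif1b these were -4.58 (false discovery rate 0.118) and -4.92 (false discovery rate 0.0916). Eif2b1 and Eif4e3 each differed by -6.32 between combination and anti-CTLA-4 (false discovery rates 0.0914 and 0.0943). For Eif2b3 anti-CTLA-4 minus anti-PD-1 DANA was -6.37 (SE 1.72, false discovery rate 0.507). So the calls against isotype do not show that the called genes differ between arms. On the library size scale, and with adjustment over tested genes only, 4 members (Eif1a, Eif1b, Eif2b1, Eif4e3) were lower in the combination than with anti-CTLA-4, and 2 (Eif1a, Eif1b) lower than with anti-PD-1 DANA.

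Upstream sequence is shown for genes called lower in the combination. RefSeq starts were matched for 40 of 52 members (GRCm38.p6), with Eif1b, Eif2b1 and Eif2d among the genes called in the combination. The 100 bases directly before each start are given 5′ to 3′ on the gene's strand, at chr9:120492506-120492605 (plus), chr5:124579132-124579231 (minus) and chr1:131153107-131153206 (plus). Capitals mark the GC box GGGCGG, the E box CACGTG and the ETS core CGGAAG on either strand.
Eif1b: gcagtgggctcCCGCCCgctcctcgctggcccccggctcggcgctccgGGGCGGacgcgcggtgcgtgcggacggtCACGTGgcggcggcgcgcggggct
Eif2b1: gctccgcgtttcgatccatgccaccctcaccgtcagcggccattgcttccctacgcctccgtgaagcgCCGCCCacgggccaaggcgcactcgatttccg
Eif2d: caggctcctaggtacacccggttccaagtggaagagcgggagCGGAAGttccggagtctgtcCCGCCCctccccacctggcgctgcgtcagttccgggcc
Each of these windows held a GC box, Eif1b an E box and Eif2d an ETS core. Motifs were also counted over a longer stretch that lay wholly before the start. The GC box was there in 75% of the 40 members and 35.4% of 27025 genes. The ETS core was in 47.5% and 15.3%, and the E box in 22.5% and 6.86%. The CRE core TGACGT was in 20% and 7.29%, and CCAAT in 30% and 37.5%. These matches describe the letters only.

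Messenger RNAs of the translation machinery often begin with a C and a run of pyrimidines, the 5′ TOP motif through which mTORC1 controls them. A start with a run of at least 5 pyrimidines, the first of them C, was found in 3 of 40 members (Eif2c5, Eif2s3x and Eif3f), beside 3.01% of all genes. The 30 bases around the start, 15 on either side, are shown for both that are expressed, at chrX:94212637-94212666 (minus) and chr7:108934400-108934429 (plus), with the run in capitals.
Eif2s3x: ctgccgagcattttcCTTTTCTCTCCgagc
Eif3f: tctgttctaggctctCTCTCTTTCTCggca
Neither gene was called in any comparison, as given above.

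Partner genes of the pathway were read from the same tables. Of 42 genes for cap and poly(A) partners, elongation, termination, mTORC1 and eIF2 kinases, all tested, 1 was called in each comparison (2.38%), beside 4.23%, 3.75% and 7.53% of tested genes. Eef1b2, an exchange factor of elongation, was lower with anti-CTLA-4, with a log2 fold change of -1.49 (implied SE 0.370, false discovery rate 0.0114) in the authors' deposited table. Rps6kb2, an S6 kinase downstream of mTORC1, was higher with anti-PD-1 DANA at 6.87 (implied SE 1.68, false discovery rate 0.011) and with the combination at 6.48 (implied SE 1.68, false discovery rate 0.00999) in the authors' deposited tables. With anti-CTLA-4 it was at 4.97 (false discovery rate 0.110) in the authors' deposited table. Eef2, the translocation factor, had -0.98, -0.86 and -0.48 (false discovery rates 0.179 and 0.327 for the single antibodies) in the authors' deposited tables. Dohh, which completes hypusine on eIF5A, had 3.05, 2.53 and 3.30 (false discovery rates 0.352, 0.652 and 0.232) in the authors' deposited tables. Eif2ak2, the kinase PKR, had -0.07, 2.63 and 4.35 (false discovery rate 0.153 in the combination) in the authors' deposited tables. Tsc2, an mTORC1 inhibitor, had -2.11, -2.41 and -3.48 (false discovery rate 0.154 in the combination) in the authors' deposited tables.

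The sorted cells carried their defining markers. All 5 CD8 T cell genes (Cd3d, Cd3e, Cd3g, Cd8a, Cd8b1) reached 147 to 486 RPKM at their highest and none was called in the authors' deposited tables. Genes of other cell types were also read in the pools. At their highest, the 6 B cell genes reached 5.90 to 373 RPKM and the 4 listed myeloid genes 0 to 92.1 RPKM. Cd4 reached 2.48 RPKM, and the 2 erythroid genes (Hba-a1, Hbb-bs), both uncalled, 1.39 to 3.07 RPKM. Of other cell types, Cd4 was higher with anti-CTLA-4 (log2 fold change 8.23) in the authors' deposited table. Of the 6 B cell genes 1 was called, Ms4a1, higher with anti-CTLA-4 (6.03), and 1, 3 and 2 of the 6 had log2 fold changes below 0 in the authors' deposited tables. Of 4 listed myeloid genes Adgre1 was at 0, and the other 3 had log2 fold changes of both signs in each comparison. C1qa had log2 fold changes of -9.69, -1.72 and -4.41 and was called lower with anti-CTLA-4, in the authors' deposited tables. Csf1r, at -1.59, 8.44 and 4.04, was called higher with anti-PD-1 DANA, and Lyz2, at 0.02, -0.62 and -4.26, was called lower in the combination, in the authors' deposited tables. Since each table holds only the larger mean, the summed level of these markers in each arm is not known. These changes fell in the same arms as the calls above, and their part in them was not tested. In such bulk samples fewer cells of a type and less RNA per cell cannot be told apart.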

How the data were processed

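RNA of 12 libraries, 3 per arm, was amplified from 0.25 ng by a Smart-seq2 type method (21 cycles), per the labels' protocols. The genome was GRCm38.p5, per the submitters' processing notes, and alignment and quantification used the CLC workbench, per the labels' protocols. Its release, annotation and model were not given in the sources used. The tables deposited by the authors give group comparisons without per-library values. The group means in the authors' tables are in RPKM, a unit read from the values. The log2 and signed fold changes deposited by the authors are positive where treated cells are higher. The p-values in the authors' deposited tables were adjusted over all 48709 listed genes.

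The set and the gene lists were chosen with earlier results of these data known. The tables were used as deposited, because the count model could not be fitted. The implied SE divides the size of a log2 fold change by the normal quantile matching its p-value (a Wald test is assumed). Treated arms were compared by differences of fold changes, two-sided, with equal variances where the 3 SE lie within 5% (50 members) and an upper bound otherwise, and Benjamini-Hochberg adjustment over all listed genes. Depths came from low RPKM means, and whole reads were solved with exon lengths of GENCODE M21, keeping single solutions with at most 0.2 expected by chance. On other genes this solved 89.3% of means, against 1% with lengths off by 1 base (chance under 0.05), and 67.7% against 8.33% (chance 0.05 to 0.2). The library size shift is a median over 418, 229 and 177 genes. The read solving and the test between treated arms were checked on simulated data. The simulated means were made and solved with the same exon lengths and depths, so that check cannot reveal a wrong exon length.

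Genes named are all called members, per role the most abundant and the one with the smallest p in each table, set paralogs, and untested members. Eif1ad, Eif2a, Eif2b4, Eif2b5, Eif3e, Eif3f, Eif4e, Eif4e1b, Eif4enif1, Eif4g2, Eif4g3 and Eif5 fall outside this rule and were chosen after their values were seen. For partner genes, called ones and the 3 smallest p per table are named. Alternatives were adjustment over tested genes, Bonferroni, scaling, level, SE and copies. Python 3.11.15, numpy 2.4.6, pandas 2.3.3, scipy 1.17.1 and matplotlib 3.10.9 were used.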

Additional observations from a re-analysis of the deposited data

How the results depend on the processing

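No paired analysis was possible because the tables give group comparisons without per-library values, for which reason leaving out a replicate was not run. With the authors' Bonferroni p-value the number of called members was 0 in each comparison with isotype. With a larger mean of 5 RPKM or more, 1 member was called for anti-CTLA-4. With adjustment over tested genes only, 3 were called for each single antibody and 5 in the combination against isotype, 4 for combination against anti-CTLA-4 and 2 for combination against anti-PD-1 DANA, and on the library size scale the last 2 comparisons again gave 4 and 2. Without members known to rest on 1 library, 2 were called in the combination, and the reads per library of these 2 were not solved. On the library size scale the median log2 fold change was 0.29 for anti-CTLA-4 and 0.10 for anti-PD-1 DANA. Eif2b1 was at 0.13 for anti-CTLA-4 on that scale, although its RPKM mean in that arm was not higher than in isotype. The 98 alternatives for single genes covered each of the 6 called genes in all 3 comparisons, also where a gene had no call to lose. The steps on level and on members resting on 1 library left a gene's own value as it was. Of the 98, 89 were unchanged in direction and call. In 8 the call was lost, all among the 7 called pairs of gene and comparison. The value of Eif2b1 for anti-CTLA-4 was the 1 that turned. The cause was not tested. Library depths were recovered for all 12 libraries, but a member's reads per library only where they were solved.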
